A study of Oryza sativa Japonica Group with 36 samples.

Results

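The genes described here are the 100 of 38026 rice genes that rose most in both leaves during mid grain filling. Mid grain filling means 12 to 28 days after heading (DAH), and the rise was taken over 4 and 44 DAH. The level at 36 DAH was not used. For each gene and leaf, the mean of log2(CPM + 1) over 3 replicates was taken at each day, where CPM is the deposited read count relative to library size, and the score of a leaf was its lowest mean at 12, 20 and 28 DAH minus its highest mean at 4 and 44 DAH. The score of a gene was the smaller of both leaves, and the 100 highest scores made up the set, so a gene needed to be higher in the middle than at both ends in flag leaves (FL) and in second leaves (SL). The study compared how FL and SL of rice age while the grain fills. Leaves of the cultivar Dongjin (Oryza sativa ssp. japonica), grown in a paddy field, with no transgene or mutation named in the labels, were collected in the early morning on 6 days, from 4 to 44 DAH in steps of 8. Each leaf and day had 3 replicates (36 libraries in 12 groups), and a day is given as a count from heading. A replicate was a pool of the middle parts of 9 leaves. The 3 pools of a group were taken at the same time, so p-values measure the spread between pools.

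The flag leaf is the last leaf below the panicle and the second leaf is the one beneath it. Both export sugars from photosynthesis to the grain and, as they senesce, dismantle chlorophyll and proteins and send the released nitrogen, phosphate and metals to the seed. Of the 100 genes, 79 were matched to RefSeq (assembly ASM3414082v1), where 77 were protein coding and 2 were a pseudogene or a miscellaneous RNA. RefSeq synonyms gave 11 of them a gene name, and product descriptions were at hand for 8, among them 1 of the 11. The remaining genes are given by identifier, and these were unannotated in the sources used here, but for a carrier named with its values. The 2 digits after OS in an identifier give the chromosome.

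Library depth was 5713546 to 29789199 reads on genes, and the libraries of 44 DAH were the shallowest, with a median of 6238056 reads against 20349456 at 12 DAH. A gene with 3 reads stood at 0.106 to 0.511 CPM, a floor that covers counting error only, and the least covered of the 100 genes had 561 reads over all libraries. The summed level of 4 RbcS genes, which encode the small subunit of Rubisco and mark green leaf tissue, was 2896 to 8041 CPM in all libraries. From the end days to the mid days 3 of these 4 genes fell and none rose (median log2 change of -0.42), and the part of this in the results was not tested. SL replicate 2 of 44 DAH and SL replicate 3 of 36 DAH agreed least with the other replicates of their groups (correlations over 22057 genes of 0.959 and 0.965). In SL replicate 2 of 44 DAH, 60 of the 100 genes had the lowest level of the 3 replicates. This was so for 76 genes in FL replicate 1 of 4 DAH and for 73 in SL replicate 1 of 4 DAH. Depth and these libraries move with days that the selection used, and their part in the membership was not tested. Without SL replicate 2 of 44 DAH, 79 of the 100 genes were selected again. Without replicate 1, 2 or 3 of all groups, the numbers were 78, 72 and 76. In bulk leaf RNA, fewer cells of a type and less RNA per cell cannot be told apart.

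The scores ran from 2.05 to 0.37 on the log2 scale, with a median of 0.49, so the lowest mid day of the median gene was 1.40-fold above its higher end on the CPM + 1 scale, and only 8 genes reached a score of 1. These values chose the genes and are given as a description. The median gene was below its mean of 12, 20 and 28 DAH by 1.01 on the log2 scale on both end days in FL, and in SL by 1.06 on day 4 and 0.86 on day 44. In 88 genes in FL and 72 in SL, all 9 libraries of the mid days lay above all 6 libraries of the end days. This was so in both leaves for 69 genes, while among all 22057 genes tested the share was 0.558%. For FL or SL alone the share among all tested genes was not taken, so the 88 and 72 genes are not read further. From the contrast that the selection used, nothing further is read. Within the middle, 58 genes in FL and 44 in SL peaked on day 20, whereas day 12 was the peak of 28 and 36 genes and day 28 of 14 and 20. The selection used these days and the shares among all tested genes were not taken, so the peak days are not read further. Of the end days, which the selection used as well, day 4 was the lower in 52 genes in FL and 81 in SL, as it was in 46.6% and 46.7% of all tested genes. The difference between these counts was not tested.

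**Figure D1:**
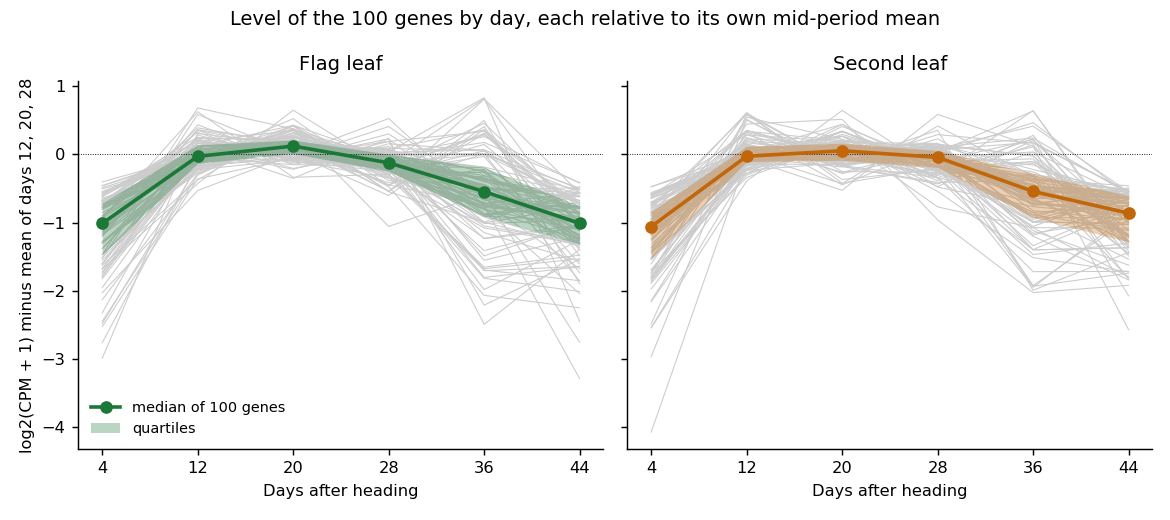
Level of each of the 100 genes (grey lines) in FL (left) and SL (right) against days after heading, as the mean of log2(CPM + 1) over 3 replicates minus the gene's own mean of 12, 20 and 28 DAH, with the median (points) and the quartiles (band) over genes. The medians lie near 0 from 12 to 28 DAH by selection, and at 36 DAH they are -0.55 in FL and -0.54 in SL while single genes spread from -2.49 to 0.83 in FL.

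The 3 lowest scores inside the set were those of OS06G0223700 (0.38), OS04G0580001 (0.38) and OS10G0529700 (0.37), and the 3 highest outside it were those of OS08G0544900 (0.37), OS12G0533800 (0.37) and OS04G0565900 (0.37). The border therefore ran through a continuum, and 1245 genes had a score above 0. With other forms of the rule, 67 to 86 of the 100 genes were selected again, fewest with a pseudocount of 0.1. A form restricted to genes past the filter on low values returned all 100, which was fixed in advance since all 100 pass that filter. Counting that form, 39 genes were selected under all 8 planned forms. The 12 highest scores were among these 39, whereas 16 genes were selected under 4 forms or fewer.

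The highest score belonged to OS03G0752500, an unannotated gene (2.05). In FL its replicates had 8.16, 4.25 and 4.15 CPM on day 4, 55, 57.5 and 70.8 on day 12, and 46.1, 54.6 and 62.4 on day 20. They then had 46.3, 39.7 and 24.6 CPM on day 28, 16, 38.1 and 38.2 on day 36, and 3.42, 3.96 and 5.09 on day 44. In FL both end days were below every other library. In SL they had 1.21, 2.59 and 1.01 CPM on day 4, 46.3, 35.4 and 37.9 on day 12, and 26.3, 20.47 and 42.5 on day 20. Later values were 69.8, 66.8 and 52.8 CPM on day 28, 38.9, 42.4 and 55.6 on day 36, and 3.92, 11.3 and 4.97 on day 44. FL and SL differed in shape within the plateau, with FL highest at 12 DAH and SL at 28 DAH, but this difference in the change from 12 to 28 DAH was -1.32 ± 0.47 (SE, adjusted p = 0.184) by limma and did not pass an adjusted p of 0.05. The next identifier on chromosome 3, OS03G0752400, was also among the 100 genes with a score of 0.41. The second highest score was that of OS02G0258800 (1.81), whose replicates had 4.32, 3.69 and 5.51 CPM on day 4, 20.4, 25.9 and 22.2 on day 20, 35.1, 52.2 and 59.2 on day 36, and 4.01, 3.64 and 4.41 on day 44 in FL. Its highest FL day was 36 DAH, which the selection did not use.

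RINO1 (OS03G0192700, score 1.204) encodes myo-inositol-1-phosphate synthase, which makes the first compound on the way from glucose 6-phosphate to inositol and phytate. Its replicates in FL had 395, 354 and 367 CPM on day 4, 1162, 886 and 897 on day 12, and 955, 1028 and 1258 on day 20. They were followed by 1135, 1099 and 1563 CPM on day 28, 219.8, 244 and 243 on day 36, and 382, 343 and 404 on day 44. All FL libraries of the mid days were above those of the other days. In SL they had 101, 154 and 175 CPM on day 4, 667, 738 and 678 on day 12, and 738, 879 and 651 on day 20. They were followed by 881, 1206 and 1071 CPM on day 28, 173, 219 and 225 on day 36, and 313, 291 and 298 on day 44. No library of 12 to 28 DAH overlapped with any of the other days in either leaf. At 36 DAH the level had fallen below that of 44 DAH in every pairing of libraries, in FL and in SL. OS01G0800500, with a purple acid phosphatase domain, an enzyme class that releases phosphate from organic esters, had 45, 55 and 54.3 CPM on day 4, 226, 242 and 245 on day 20, and 70.4, 63.6 and 94.4 on day 44 in FL. In SL the replicates had 42.9, 42.9 and 42.6 CPM on day 4, 203, 191 and 168 on day 20, and 70.2, 63.3 and 74.1 on day 44. All its libraries of 20 DAH were above those of 4 and 44 DAH, and at 36 DAH the mean was 131 ± 7.54 CPM in FL and 123.2 ± 13.8 CPM in SL (SD, n = 3).

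NAS3 (OS07G0689600, score 1.203) encodes a nicotianamine synthase. Nicotianamine binds iron, zinc and copper and keeps them mobile in the phloem. Its replicates had 0.84, 1.79 and 2.15 CPM on day 4, 10.4, 16.8 and 17.9 on day 12, 21.1, 20.7 and 22.1 on day 20, 16.2, 17.9 and 8.34 on day 28, 9.32, 7.81 and 9.69 on day 36, and 2.36, 5.06 and 2.54 on day 44 in FL. In SL they had 1.32, 2.49 and 4.15 CPM on day 4, 9.86, 13.1 and 16.3 on day 12, 17.5, 13.9 and 22.6 on day 20, 14.9, 14.8 and 10.9 on day 28, 11.7, 12.8 and 17.6 on day 36, and 3.58, 5.18 and 6.68 on day 44. The SL level at 36 DAH lay within the range of 12 to 28 DAH, and that of FL lay within or below it. The remaining nicotianamine synthase genes, NAS1 and NAS2, had too few reads to be tested. Of the genes of YSL transporters, which carry metals bound to nicotianamine, 9 of 18 were tested and 2 rose and 2 fell from the end days to the mid days, where 27.9% of all tested genes were higher and 26.6% lower in the middle.

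LOGL3 (OS03G0109300, score 1.08) belongs to the LOG family, whose enzymes release active cytokinin from its nucleotide. In FL its replicates had 5.22, 6.63 and 9.08 CPM on day 4, 32.2, 23.7 and 22.9 on day 12, 24.2, 18.9 and 21 on day 20, 25.3, 22.3 and 38 on day 28, 25.7, 23.7 and 28.7 on day 36, and 8.02, 9.34 and 11.4 on day 44. In SL they had 10.5, 12.4 and 15.2 CPM on day 4, 43.2, 74.3 and 60.6 on day 12, 29.5, 32.7 and 39.4 on day 20, 42.2, 47.9 and 63.6 on day 28, 44.7, 51.6 and 42 on day 36, and 9.88, 18.6 and 9.94 on day 44. At each day from 4 to 36 DAH all SL libraries lay above all FL libraries of that day, and at 44 DAH the leaves overlapped. HKT2;1 (OS06G0701700, score 0.41), a sodium transporter known from rice roots short of potassium, had 0.36, 0.635 and 0.679 CPM on day 4, 3.02, 3.00 and 4.97 on day 12, 1.56, 1.74 and 0.853 on day 20, and 1.31, 1.66 and 1.32 on day 28 in FL. In SL it had 0.331, 1.25 and 1.12 CPM on day 4, 5.66, 7.9 and 11.5 on day 12, 5.36, 3.38 and 12.6 on day 20, and 5.54, 1.35 and 2.13 on day 28. Its mean was highest at 12 DAH in both leaves, the SL libraries of 12 and 20 DAH were all above those of FL, and the leaves overlapped at 4 and 28 DAH. At 36 DAH its mean was 2.13 CPM in FL, above those of 20 and 28 DAH (1.39 and 1.43 CPM), and 1.98 CPM in SL. The FL minus SL difference at 36 DAH was 0.01 ± 0.33 (SE, adjusted p = 0.987) by limma. HKT2;1 was selected under only 3 of the 8 planned forms of the rule. ASMT1 (OS09G0344500, score 0.40), an N-acetylserotonin methyltransferase that makes melatonin, had 3.54, 3.69 and 5.65 CPM on day 4, 7.08, 8.91 and 7.12 on day 12, 10.5, 7.08 and 4.95 on day 28, and 19.7, 10.8 and 15 on day 36 in FL. In SL it had 17.9, 17.4 and 26.2 CPM on day 4, 23.3, 35.5 and 66.4 on day 12, 56.7, 15.5 and 21.6 on day 28, and 33.1, 27.3 and 16.3 on day 36. All SL libraries of 4, 12 and 28 DAH were above those of FL, the SL replicates of 12 and 28 DAH were far apart, and the FL mean was highest at 36 DAH.

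UVR3 (OS02G0204400, score 0.63) is named after the Arabidopsis photolyase that repairs (6-4) damage left in DNA by UV light. Its replicates had 10.02, 12.4 and 12.4 CPM on day 4, 52.2, 42.6 and 45.3 on day 12, and 58.7, 53.9 and 62.3 on day 20 in FL, then 31.3, 42.1 and 48.2 CPM on day 28, 21.9, 18.6 and 18.9 on day 36, and 22.5, 21.1 and 24.9 on day 44. In SL they had 4.41, 6.62 and 5.5 CPM on day 4, 22.4, 19.4 and 18.6 on day 12, and 27, 27 and 20.1 on day 20, then 20.2, 23.2 and 18.8 CPM on day 28, 6.55, 9.66 and 7.92 on day 36, and 15, 11.7 and 11.3 on day 44. FL was above SL in all libraries of each day, and in both leaves the mean was highest at 20 DAH and lower at 36 than at 44 DAH. EXO1 (OS01G0777300, score 1.00), an exonuclease of DNA repair known from yeast and mammals, had 4.56 ± 0.577, 16.7 ± 0.928 and 3.33 ± 0.382 CPM at 4, 20 and 36 DAH in FL, and 1.58 ± 0.346, 10.8 ± 0.391 and 2.35 ± 0.261 CPM in SL (SD, n = 3). SHOC1 (OS02G0642600, score 0.44), needed for meiotic crossovers, peaked at 6.96 ± 0.727 CPM in FL and 4.57 ± 0.727 CPM in SL at 20 DAH.

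Of the 12 highest scores, 2 more belonged to genes on chromosome 11. OS11G0569800 (score 0.98), unannotated, had 8.46, 11.9 and 12.3 CPM on day 4, 68.4, 53.7 and 51.5 on day 12, and 91, 76.6 and 95.3 on day 20 in FL, then 45, 52.8 and 65.3 CPM on day 28, 49.5, 54.2 and 50.2 on day 36, and 24.6, 27.5 and 28.3 on day 44. In SL it had 7.5, 8.25 and 9.3 CPM on day 4, 45, 37.4 and 39.6 on day 12, and 87.9, 88.5 and 76.6 on day 20, then 48.4, 57.5 and 31.8 CPM on day 28, 26.4, 34.6 and 27.1 on day 36, and 18.2, 13.1 and 23.3 on day 44. OS11G0242500 (score 0.84), a transcribed pseudogene in RefSeq, had 2.7, 4.45 and 5.26 CPM on day 4, 17.9, 17.2 and 16 on day 20, and 7.31, 7.91 and 5.42 on day 44 in FL. Its SL values were 1.43, 2.4 and 2.64 CPM on day 4, 12.5, 13.2 and 14.3 on day 20, and 4.26, 3.65 and 4.81 on day 44. In both genes the libraries of 20 DAH lay above those of 4 and 44 DAH in each leaf.

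**Figure D2:**
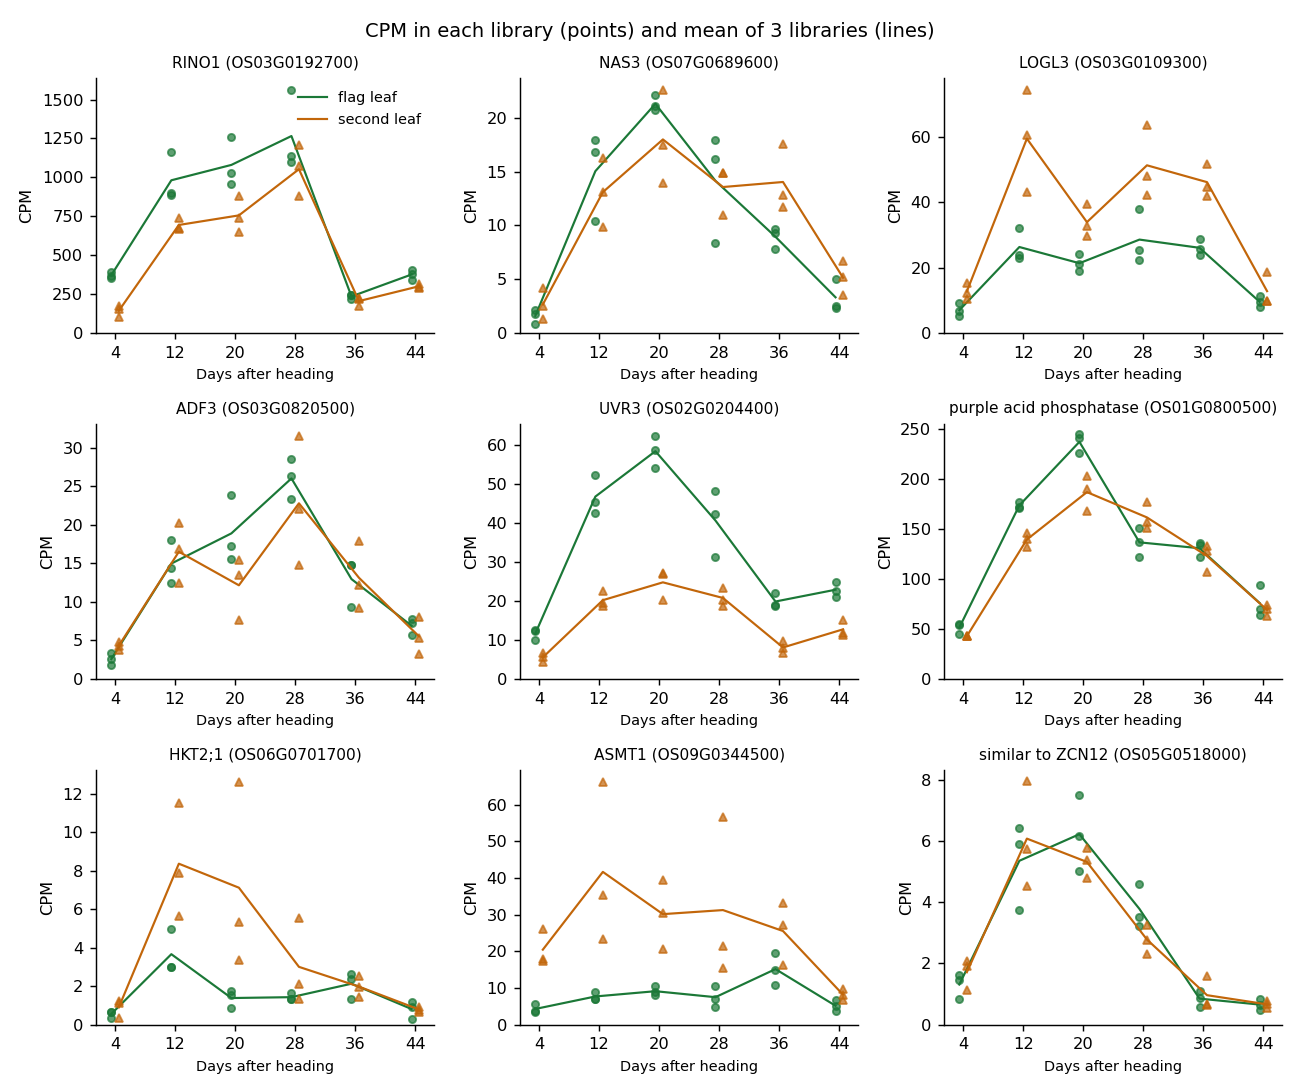
CPM of 9 named genes against days after heading, with a point for each library (FL circles, SL triangles) and lines through the means of 3 replicates on an axis from 0. RINO1, UVR3 and the gene similar to ZCN12 drop between 28 and 36 DAH in both leaves, LOGL3 stays up at 36 DAH, and LOGL3, HKT2;1 and ASMT1 are higher in SL from 12 to 28 DAH while UVR3 is higher in FL.

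ADF3 (OS03G0820500, score 1.01) encodes an actin depolymerizing factor, which severs actin filaments. Its replicates had 1.8, 2.58 and 3.33 CPM on day 4, 18, 12.4 and 14.4 on day 12, 28.5, 26.3 and 23.3 on day 28, and 5.66, 7.76 and 7.29 on day 44 in FL. The SL libraries had 3.75, 4.32 and 4.84 CPM on day 4, 12.4, 16.8 and 20.3 on day 12, 31.5, 14.8 and 22 on day 28, and 5.28, 7.99 and 3.26 on day 44, with the highest mean at 28 DAH in both leaves. OS05G0518000 (score 0.49) was described as similar to ZCN12, a maize member of the family of the florigen FT. It had 0.84, 1.63 and 1.47 CPM on day 4, 6.42, 5.91 and 3.73 on day 12, 3.23, 3.51 and 4.6 on day 28, and 1.1, 0.882 and 0.573 on day 36 in FL. In SL the replicates had 2.1, 1.92 and 1.12 CPM on day 4, 7.94, 4.54 and 5.75 on day 12, 3.25, 2.77 and 2.32 on day 28, and 0.667, 1.59 and 0.633 on day 36, and its mean at 36 DAH was below that of 4 DAH in both leaves. OS05G0579700 (score 1.17, similar to 10A19I.9) was near the floor outside the middle, with 0.24, 0.357 and 0.179 CPM on day 4, 5.61, 5.15 and 5.22 on day 20, and 0, 0 and 0 on day 44 in FL. Its SL values were 0, 0 and 0.116 CPM on day 4, 2.56, 3.66 and 2.14 on day 20, and 0.511, 0 and 0 on day 44. At 44 DAH, all 3 FL replicates had 0 reads, and a count of 0 allows up to the floor of 3 reads.

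Besides HKT2;1, transporters were represented by OS01G0268100, OS04G0573000 and OS01G0945600. The study names OS01G0268100 and OS04G0573000 as members of the major facilitator superfamily of carriers, and OS01G0945600 is described as similar to an amino acid permease. OS04G0573000 had 409 ± 13.7, 726 ± 124 and 264 ± 39.2 CPM on days 4, 12 and 44 in FL, and 256 ± 33.6, 704 ± 38.5 and 197 ± 116 CPM in SL (SD, n = 3). Its 3 SL replicates of 44 DAH (191, 83.1 and 316 CPM) were spread widely, with the lowest value in the library that agreed least with its group. OS01G0268100 had 99.1 ± 6.51, 197 ± 4.68 and 119 ± 12.2 CPM at 4, 20 and 44 DAH in FL, and 97.5 ± 5.72, 240.1 ± 7.51 and 94.2 ± 39.5 CPM in SL. The permease gene OS01G0945600 had 5.34, 6.08 and 5.69 CPM on day 4, 18.9, 27.6 and 24.5 on day 12, 23.5, 28.8 and 24.4 on day 36, and 9.73, 12 and 9.66 on day 44 in FL, and its libraries of 36 DAH overlapped with those of 12 DAH. Both carrier genes are among 7 transporter genes that the study had grouped by their profile in these samples. The 5 others all rose from the end days to the mid days (median log2 change of 0.67), which is not independent evidence of the direction.

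A kinase, a hydrolase and a transcription factor gene were also among the annotated genes. OS12G0105800, with a tyrosine kinase domain, had 115 ± 14.3, 256 ± 7.73 and 117 ± 2.59 CPM at 4, 20 and 36 DAH in FL and 85.2 ± 7.08, 222 ± 14.9 and 91.4 ± 23 CPM in SL (SD, n = 3). OS03G0273800, a hydrolase of the HAD superfamily, had 488 ± 26.6, 846 ± 112 and 249 ± 39.2 CPM at 4, 12 and 36 DAH in FL and 304 ± 48.3, 662 ± 26.1 and 181 ± 31.1 CPM in SL. At 36 DAH the HAD hydrolase gene was below its mean of 4 DAH in both leaves, and the kinase gene was within 1 SD of it. ARF17 (OS06G0677800, score 0.39), an auxin response factor that binds DNA, had 63.7 ± 8.36 CPM at 20 DAH in FL and 64 ± 1.92 CPM in SL. OS03G0179900 (score 0.38) had 28.8 ± 2.03 and 73.1 ± 4.22 CPM at 4 and 12 DAH in FL. Its sources differ on its identity, since RefSeq lists the synonym LOX2, a lipoxygenase, while the study describes it as similar to Avr9/Cf-9 rapidly elicited protein 44.

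Libraries of 36 DAH took no part in the selection and were compared as a description with the days that did. The selection set the mid days high and the end days low. Shares among all tested genes were not taken, so the counts that follow are not read further. The mean at 36 DAH lay above the higher of 4 and 44 DAH in 71 genes in FL, in 71 in SL and in 64 in both leaves. It was at or above the lowest mid day in 27 genes in FL, 24 in SL and 17 in both, and at or below the higher end in both leaves in 22. In mean CPM, 36 DAH was the highest of all days in 13 genes in FL and in 8 in SL. The median distance of 36 DAH from the mean of the mid days was -0.55 in FL and -0.54 in SL on the log2 scale. Without SL replicate 2 of 44 DAH, the number above the ends in SL was 61, and without replicate 2 of all groups it was 50. The 22 genes at or below the higher end in both leaves included RINO1, EXO1, UVR3, OS05G0518000, OS03G0273800, OS12G0105800 and OS05G0579700.

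The lowest levels relative to the middle at 36 DAH were those of OS02G0726700 (-2.49 in FL and -1.95 in SL), RINO1 (-2.21 and -1.99) and OS10G0578950 (-1.98 and -1.92), as log2 differences from the mid mean. OS10G0578950 had 149, 151 and 126 CPM on day 28, 37.8, 41.9 and 34.9 on day 36, and 71.5, 61.7 and 59 on day 44 in FL. The SL libraries had 102, 118 and 86.2 CPM on day 28, 24.8, 31.1 and 15.8 on day 36, and 54.5, 28.6 and 63.7 on day 44. In FL all its 36 DAH libraries were below those of 28 and of 44 DAH. OS02G0726700 had 82.9, 87.7 and 59 CPM on day 28, 10.1, 11.5 and 10.1 on day 36, and 21.5, 22.2 and 28.1 on day 44 in FL and was likewise lowest at 36 DAH. At the other extreme, OS02G0258800 (0.83 in FL and 0.23 in SL), OS06G0223700 (0.41 and 0.64) and OS03G0594100 (0.34 and 0.64) were higher at 36 DAH than on average in the middle. OS03G0594100 had 19.1, 16.2 and 14.4 CPM on day 28, 19.9, 26.9 and 31.2 on day 36, and 3.92, 8.53 and 6.52 on day 44 in SL, where the libraries of 36 DAH were above those of the neighbouring days. The unannotated OS04G0125700, one of the 12 highest scores, was at 36 DAH above the mean of every mid day in both leaves, with 10.8, 8.92 and 8.25 CPM on day 20, 3.53, 6.18 and 4.14 on day 28, 8.15, 13.7 and 9.8 on day 36, and 0.884, 1.42 and 1.19 on day 44 in FL.

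**Figure D3:**
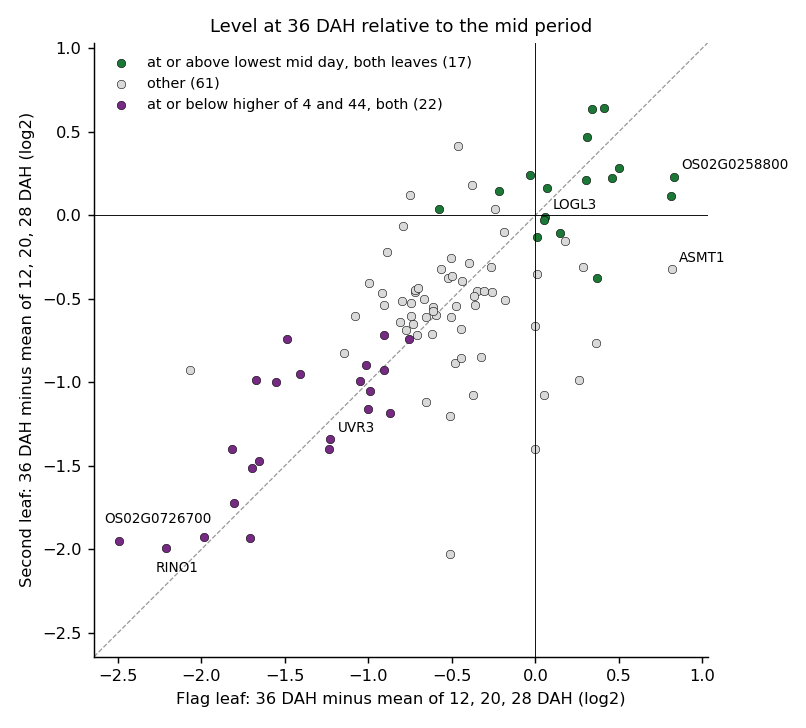
Log2 difference between 36 DAH and the mean of 12, 20 and 28 DAH in FL (horizontal) and SL (vertical) for each of the 100 genes, on log2(CPM + 1), with the dashed line marking equal differences. The 17 green genes were at or above their lowest mid day in both leaves. The 22 purple genes were at or below the higher of the end days (4 and 44 DAH) in both, and RINO1 lies at -2.21 and -1.99.

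Whether the genes differed between the leaves was asked with limma on quantile-normalized log2(CPM + 1) values of 22057 genes, as FL minus SL. Averaged over 12, 20 and 28 DAH, 56 of the 100 genes were higher in FL and 7 were higher in SL at an adjusted p below 0.05. Among all tested genes, 22.9% were called higher in FL and 26.8% higher in SL. The median difference of the 100 genes was 0.31 on the log2 scale and that of all tested genes was -0.03. The selection used these libraries but compared days within a leaf and favoured neither leaf. Over the alternatives tried, 48 to 59 genes were higher in FL and 6 to 9 in SL. Of all tested genes, 3224 to 5553 were called higher in FL and 3712 to 6494 in SL. As a description of single days, 71 to 84 of the 100 genes had a higher mean in FL, with the most at 4 DAH and the fewest at 44 DAH, while the share among all tested genes was 46.0% to 51.8%. The lean towards FL was therefore present at the ends as well as in the middle.

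Among the genes past the threshold, the largest differences in favour of FL were those of the unannotated OS01G0627800 (1.37 ± 0.14, adjusted p = 1.13e-08), OS07G0179300 (1.22 ± 0.10, adjusted p = 3.29e-10) and OS04G0668800 (1.19 ± 0.10, adjusted p = 3.70e-10), each as log2 ± SE. OS04G0668800 had 173, 158 and 169 CPM on day 12, 135, 131 and 138 on day 20, and 92.8, 95.6 and 103.1 on day 28 in FL. In SL it had 83.7, 75.9 and 78.3 CPM on day 12, 52.4, 46.5 and 49.5 on day 20, and 41.2, 48.4 and 41.6 on day 28. The leaves did not overlap on any of these days. OS07G0179300 had 32.1, 21.8 and 30.2 CPM on day 12, 21.9, 18.9 and 22.9 on day 20, and 15.8, 20.1 and 23.2 on day 28 in FL. In SL it had 10.7, 10.8 and 9.09 CPM on day 12, 9.32, 7.7 and 7.59 on day 20, and 8.44, 9.14 and 9.48 on day 28. Here too no SL library reached the lowest FL library of the same day. OS01G0627800 had 8.34, 6.93 and 8.87 CPM on day 12, 12.4, 12.9 and 14.7 on day 20, and 8.78, 10.8 and 9.55 on day 28 in FL. In SL it had 2.32, 1.81 and 4.03 CPM on day 12, 3.88, 3.1 and 3.45 on day 20, and 5.96, 3.9 and 2.04 on day 28, again without overlap. UVR3 was higher in FL by 1.10 ± 0.08 (SE, adjusted p = 7.57e-11), RINO1 by 0.53 ± 0.07 (SE, adjusted p = 1.29e-06) and EXO1 by 0.54 ± 0.11 (SE, adjusted p = 1.07e-04). The largest differences in favour of SL, again past the threshold, were those of ASMT1 (-1.82 ± 0.21, adjusted p = 4.88e-08), HKT2;1 (-1.12 ± 0.19, adjusted p = 2.38e-05) and LOGL3 (-0.86 ± 0.12, adjusted p = 2.35e-06). ASMT1, HKT2;1 and LOGL3, with roles in melatonin, sodium and cytokinin, kept an adjusted p below 0.05 under every alternative tried for this contrast, and so did OS01G0627800, OS07G0179300 and OS04G0668800. For NAS3 (0.15 ± 0.17, adjusted p = 0.462), ADF3 (0.26 ± 0.16, adjusted p = 0.194) and OS05G0518000 (0.08 ± 0.13, adjusted p = 0.628), no difference passed the test.

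At 36 DAH, in libraries that the selection did not use, 27 of the 100 genes were higher in FL and 3 were higher in SL. The share of all tested genes was 4.68% higher in FL and 6.24% higher in SL. Both leaf comparisons called the same direction in 25 genes for FL and in 2 for SL, which was so in 2.58% and 3.32% of all tested genes. The sign was shared by 83 of the 100 genes and by 58.9% of all tested genes, in libraries of different days. The number of calls at 36 DAH depended on single libraries. It was 13 for FL without FL replicate 2 of that day, 14 without SL replicate 1 and 42 without SL replicate 2. Of all 22057 tested genes, 280, 339 and 2602 were called for FL in these fits, against 1032 with all libraries. For the 100 genes it was 15 without replicate 3 of all groups and 1 without replicate 1 of all groups. Of all tested genes, 493 and 12 were called there. When only the 6 libraries of 36 DAH entered the fit, 0 of the 100 genes and 0 of all tested genes were called for FL. In that fit 38 of the 100 genes and 4340 of all tested genes had an unadjusted p below 0.05. The 3 genes called for SL became 0 in that fit and without FL replicate 2. Of all tested genes, 0 and 281 were called for SL in these 2 fits, against 1377 with all libraries. The SL libraries of 36 DAH had 6113466 to 8435021 reads, fewer than those of FL (15468993 to 17205973), and the part of depth in these calls was not tested.

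Among the genes past the threshold at 36 DAH, the largest differences in favour of FL were those of OS04G0580001 (1.35 ± 0.35, adjusted p = 0.0151), OS07G0642100 (1.29 ± 0.25, adjusted p = 0.0021) and UVR3 (1.24 ± 0.15, adjusted p = 1.47e-05). UVR3 had 21.9, 18.6 and 18.9 CPM in FL and 6.55, 9.66 and 7.92 CPM in SL at that day, and its call was lost only when the other days were left out of the fit. OS07G0642100 had 44.1, 46.7 and 47.2 CPM in FL and 18.3, 29 and 11.9 CPM in SL. OS04G0580001 had 4.59, 7.5 and 5.85 CPM in FL and 1.33, 2.45 and 1.42 CPM in SL, and its call was lost under 5 alternatives. From 12 to 28 DAH its difference was near 0 (-0.07 ± 0.20, adjusted p = 0.802). The 3 genes called higher in SL were OS01G0561600 (-0.98 ± 0.22, adjusted p = 0.00729), LOGL3 (-0.84 ± 0.22, adjusted p = 0.0148) and OS03G0806600 (-0.55 ± 0.14, adjusted p = 0.0143). OS01G0561600 had 5.24, 3.97 and 5.9 CPM in FL and 11.4, 8.07 and 13.3 CPM in SL. Their calls were lost without FL replicate 2 of 36 DAH, while the direction stayed the same.

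**Figure D4:**
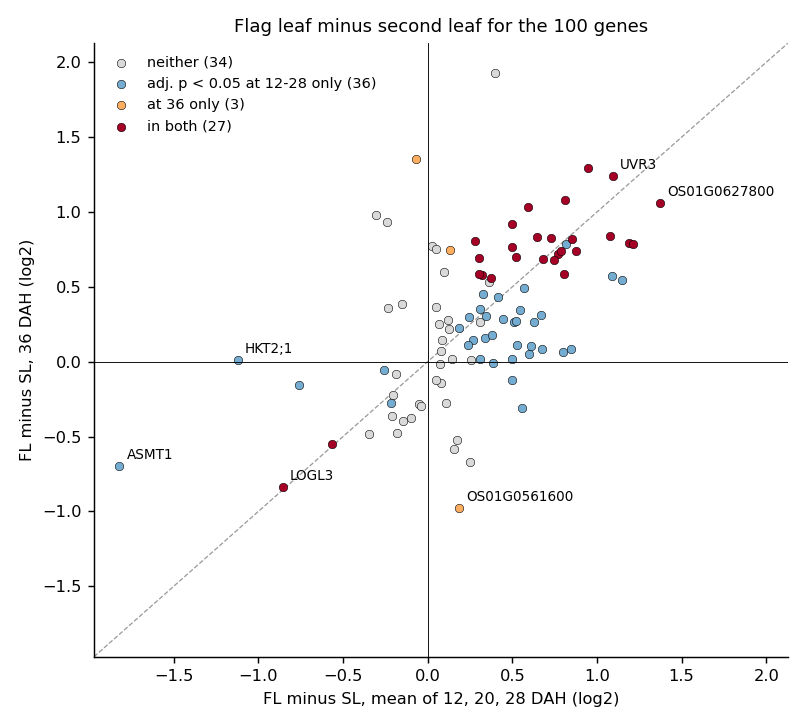
Log2 difference FL minus SL averaged over 12, 20 and 28 DAH (horizontal) and at 36 DAH (vertical) for each of the 100 genes from limma, coloured by which comparison had an adjusted p below 0.05, with the dashed line marking equal differences. Most points lie to the right of 0, 27 genes passed in both comparisons, and LOGL3 and ASMT1 lie on the SL side.

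Within the middle, the change from 12 to 28 DAH separated genes of the early side from those of the late side. In FL, 7 genes were higher at 28 than at 12 DAH and 17 were lower, where 22.1% and 23.3% of all tested genes were called. In SL, 5 were higher and 12 were lower, where 19% and 18.5% of all tested genes were called. The selection asked for a high level at each of these days and so favoured small changes between them, and the number of calls is not read against these shares. Of the 100 genes, 2 were called higher at 28 DAH in both leaves (RINO1 and OS11G0707600), 8 were called lower in both, none was called in opposite directions, and 69 were called in neither leaf. Over the alternatives tried, the counts were 3 to 11 higher and 11 to 22 lower in FL, and 3 to 7 higher and 2 to 12 lower in SL. Without replicate 3 of all groups 11 genes were higher and 11 lower in FL and 2 were lower in SL, without replicate 1 11 were lower in FL, and without replicate 2 3 were higher in each leaf and 5 were lower in SL. Over all tested genes, leaving out a replicate gave 3737 to 4654 higher and 3487 to 5151 lower in FL. In SL it gave 2935 to 3198 higher and 2565 to 3376 lower.

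RINO1 rose from 12 to 28 DAH by 0.63 ± 0.13 (SE, adjusted p = 1.63e-04) in FL and by 0.76 ± 0.13 (SE, adjusted p = 2.34e-05) in SL on the log2 scale. The FL call was lost without quantile normalization and in edgeR on recovered reads. ADF3 rose by 0.79 ± 0.28 (SE, adjusted p = 0.0228) in FL and its change in SL was 0.41 ± 0.28, adjusted p = 0.264. Its FL call was lost without replicate 1 and without replicate 2 of all groups. OS08G0388900 rose by 1.08 ± 0.34 (SE, adjusted p = 0.0104) in FL, with 2.14, 7.33 and 3.5 CPM on day 12, and 10.4, 8.48 and 8.8 on day 28, a call that was lost without replicate 1. In SL, OS03G0806600 rose by 0.42 ± 0.14 (SE, adjusted p = 0.0193) and OS03G0826000 by 0.40 ± 0.16 (SE, adjusted p = 0.0485), the former lost without replicate 1 and without replicate 3, and the latter close to the threshold and lost under 7 alternatives. The largest falls in each leaf included the same 3 genes. OS03G0752400 changed by -1.70 ± 0.38 (SE, adjusted p = 5.52e-04) in FL and -1.004 ± 0.38 (SE, adjusted p = 0.0385) in SL, with 10.3, 26 and 30.4 CPM on day 12, 15.2, 16 and 17.4 on day 20, and 9.29, 8.16 and 1.73 on day 28 in FL, where replicate 1 of 12 DAH lay close to the replicates of 28 DAH. OS04G0691900 changed by -1.16 ± 0.36 (SE, adjusted p = 0.00914) in FL and -1.01 ± 0.36 (SE, adjusted p = 0.0269) in SL. HKT2;1 changed by -0.96 ± 0.33 (SE, adjusted p = 0.0198) in FL and -1.28 ± 0.33 (SE, adjusted p = 0.00306) in SL. All 3 falls were lost under at least 1 alternative in each leaf, that of OS03G0752400 in SL under 5. OS05G0518000 changed by -0.84 ± 0.22 (SE, adjusted p = 0.00362) in SL.

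**Figure D5:**
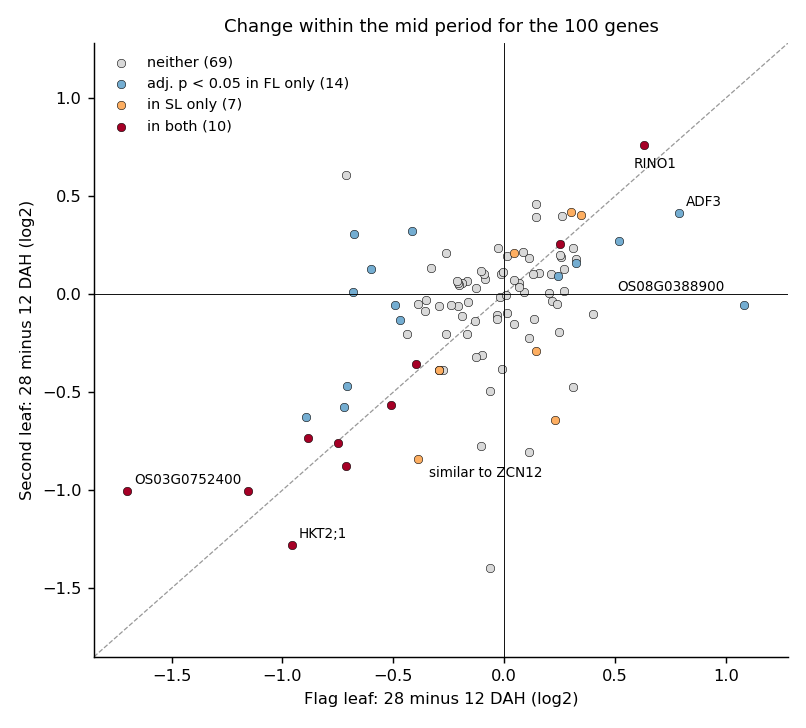
Log2 change from 12 to 28 DAH in FL (horizontal) and SL (vertical) for each of the 100 genes from limma, coloured by the leaf in which the adjusted p was below 0.05, with the dashed line marking equal changes. The 10 genes called in both leaves lie in the quadrants of equal sign, RINO1 on the side of 28 DAH and HKT2;1 and OS03G0752400 on the side of 12 DAH.

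Whether the size of the rise differed between the leaves was asked with an interaction contrast, the mean of 12, 20 and 28 DAH minus the mean of 4 and 44 DAH in FL minus the same in SL. The rise was larger in FL for 6 genes and larger in SL for 4, where 11.1% and 12.1% of all tested genes were called. Since a gene needed a rise in both leaves to be selected, these numbers are not read against the shares. The selection used the same libraries and the rise in each leaf, so the calls and adjusted p-values of the 100 genes are a description here. The median of the 100 genes was 0.00 on the log2 scale. Larger in FL were OS01G0561600 (0.73 ± 0.20, adjusted p = 0.0116), OS01G0627800 (0.68 ± 0.23, adjusted p = 0.0295) and OS07G0179300 (0.50 ± 0.16, adjusted p = 0.0263), and larger in SL were HKT2;1 (-1.05 ± 0.30, adjusted p = 0.0145), OS01G0919100 (-0.79 ± 0.26, adjusted p = 0.0297) and OS03G0826000 (-0.42 ± 0.15, adjusted p = 0.039). OS01G0561600 had 10.9, 9.17 and 10.9 CPM on day 4, 28.1, 26.6 and 31.1 on day 20, and 4.01, 4.59 and 4.24 on day 44 in FL. In SL the replicates had 11.6, 10.5 and 9.42 CPM on day 4, 19.9, 30.9 and 21.4 on day 20, and 9.37, 10.7 and 12.1 on day 44, and its FL libraries of 44 DAH lay below all others of both leaves at these days. For HKT2;1, the rise in SL rested on values of 12.6 CPM and less. Without replicate 2 of all groups 0 genes were called by limma (14 with an unadjusted p below 0.05), without replicate 1 the counts were 2 and 0, and without SL replicate 2 of 44 DAH the counts were 9 and 2. Over all tested genes these fits called 200 and 194, 897 and 846, and 2156 and 2577. The difference between the leaves in the change from 12 to 28 DAH, an added contrast, was called by limma in 0 of the 100 genes (10 with an unadjusted p below 0.05, and 0 by edgeR) and in 1.02% (more positive in FL) and 0.499% (more positive in SL) of all tested genes.

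The relatives of the named genes, taken from RefSeq synonyms with the 100 genes already known, were tested for the rise from the mean of 4 and 44 DAH to that of 12, 20 and 28 DAH over both leaves, in which 27.9% of all tested genes were higher and 26.6% lower in the middle. Their counts are a description and are not read as particular to a family. Of 5 tested HKT genes outside the set, 4 rose and none fell (median 0.40), with the largest change in HKT1;1 (1.44 ± 0.14, adjusted p = 9.45e-10). Of 6 other LOG genes, 3 rose and none fell (median 0.24), of 7 other actin depolymerizing factors 4 rose and none fell (median 0.23), and of 22 other auxin response factors 11 rose and 4 fell (median 0.16). Both other genes of photolyases and their relatives rose, CRYD by 0.91 ± 0.07, adjusted p = 3.54e-12. HEI10, which like SHOC1 acts in meiotic crossover formation, rose by 0.84 ± 0.06, adjusted p = 1.13e-11. Of 4 other lipoxygenase genes, 3 fell and none rose (median -0.34), the most CM-LOX1 (-0.71 ± 0.14, adjusted p = 1.19e-04). The median over all tested genes was 0.02.

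A few of the 100 genes were neighbours in the order of identifiers. OS03G0752400 and OS03G0752500 on chromosome 3 and OS05G0148800 and OS05G0148900 on chromosome 5 had no gene between them, and 4 more pairs had 10 steps or fewer between them, so that 11 genes had such a neighbour. OS03G0752500 was called in neither leaf for the change from 12 to 28 DAH, while OS03G0752400 fell in both. Whether reads were counted by strand is not given in the sources used here, so reads of overlapping neighbours cannot be told apart.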

How the data were processed

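Stranded poly(A) libraries were sequenced from 3 replicate leaf pools per leaf and day (36 libraries). Per the labels and the methods of the study, reads were handled with CASAVA 1.8.2, cutadapt 1.2.1, TopHat2 2.0.10 with Bowtie, and HTSeq 0.6.1 on IRGSP 1.0. The strand setting of the counting is not given in the sources used here. The signal values that the authors deposited are CPM values, read counts relative to a library size that was scaled by the TMM method of edgeR, on a linear scale. Whole reads were recovered from them within 0.01 reads for all values, which gave the depth per library.

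The 100 genes and all lists were chosen with earlier results of these data known. Values were taken as log2(CPM + 1) and quantile normalized, and 22057 genes with at least 1 on that scale in at least 3 libraries were fitted with limma 3.58.1 (trend, R 4.3.3) over 12 groups, with Benjamini-Hochberg adjustment over all tested genes within a contrast and a threshold of 0.05. All 100 genes passed the filter. Fold changes on this scale understate those of low genes. Levels at single days were described without a test. Alternatives were no quantile normalization, a pseudocount of 0.1, no filter, edgeR 4.0.16 (quasi-likelihood) on the recovered reads, only the groups of a contrast, leaving out a replicate, and the replicate number as a block. Leaving out single libraries and the contrast on the change from 12 to 28 DAH between the leaves were chosen after seeing the data.

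Named in the text were the 12 highest scores, the 3 genes just inside and just outside the threshold, the 3 largest called differences in each direction of each contrast, the genes with a name or description, and the 3 highest and lowest levels at 36 DAH relative to the middle. OS11G0707600, OS03G0752400 as a neighbour, and the relatives of named genes were added after their values were seen. Classes by product were not counted because only 8 of the 100 genes had a description, and promoter motifs and sequences were not used here. Chromosome coordinates were not used because the RefSeq assembly differs from that of the study. Figures were drawn with matplotlib 3.10.9.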

Additional observations from a re-analysis of the deposited data

Results flagged for a closer look

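The rise from 4 and 44 DAH to 12 to 28 DAH was called different between the leaves by limma's interaction contrast in a few of the 100 genes. It was larger in FL for 6 and larger in SL for 4. The selection used the rise in each leaf, so these calls are a description. The named genes with a larger rise in FL were OS01G0561600 (difference of 0.73 on the log2 scale), OS01G0627800 (0.68) and OS07G0179300 (0.50), and those with a larger rise in SL were OS06G0701700, which is HKT2;1 (-1.05), OS01G0919100 (-0.79) and OS03G0826000 (-0.42). All 6 lost the call without replicate 1 and without replicate 2 of all groups, while the direction stayed the same.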

How the results depend on the processing

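The lean of the 100 genes towards FL from 12 to 28 DAH held under every alternative tried (48 to 59 genes higher in FL, 6 to 9 higher in SL). Over all tested genes these counts were 3224 to 5553 and 3712 to 6494. The other counts moved. At 36 DAH, the fit on the groups of the contrast alone called 0 genes in each direction, also among all tested genes. Leaving out 1 replicate number or 1 library of that day gave 1 to 42 higher in FL and 0 to 4 in SL. Over all tested genes it gave 12 to 2602 and 7 to 2642. From 12 to 28 DAH, the genes higher at 28 DAH numbered 3 in FL and 3 in SL without quantile normalization, 3 in SL without a filter and 4 in FL with edgeR. Over all tested genes (33063 without a filter) these counts were 4541, 4118, 4105 and 4919. Leaving out a replicate gave 3 to 11 higher and 11 to 13 lower in FL, and 3 to 5 higher and 2 to 8 lower in SL. Over all tested genes it gave 3737 to 4654 and 3487 to 5151 in FL. In SL it gave 2935 to 3198 and 2565 to 3376 of them. For the leaf difference in the rise, leaving out a replicate gave 0 to 5 genes larger in FL and 0 to 4 larger in SL. Over all tested genes these counts were 200 to 2372 and 194 to 2476. Without only SL replicate 2 of 44 DAH, the counts were 9 and 2, and 2156 and 2577 over all tested genes. The cause was not tested. Of the 312 comparisons of 30 named results with an alternative, 240 kept their call, 72 lost it and 0 reversed. The SL libraries of 36 DAH were shallower than those of FL, and the part of depth was not tested.

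Replicate numbers were not taken to pair the samples, since the labels tie them to no shared batch and not every same-numbered pair of FL and SL libraries had deviations that correlated above 0.1 (11 of 18 did, -0.118 to 0.605). The mean was 0.173 for the same number, a hint of pairing in the data. The mean of -0.0888 for different numbers adds nothing to it, because deviations from a group mean cancel within the group. With same-numbered FL and SL libraries of a day as a block, 32 and 4 genes were higher in FL and SL at 36 DAH. From 12 to 28 DAH, 57 and 8 were. Of all tested genes, 1609 and 1987, and 5362 and 6182, were called. The other contrasts had a term for the replicate number in each leaf over all days, which does not pair FL with SL. With that term, 7 rose and 19 fell from 12 to 28 DAH in FL, and 4 rose and 11 fell in SL. The rise was larger in FL for 7 and in SL for 4. Over all tested genes, 6002 were called higher and 5757 lower in the middle with that term.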
